A study of Mus musculus with 23 samples.

Results

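The JmjC histone demethylases outside the KDM2 family were followed in mouse embryonic stem cells (ESCs) with and without the ZF-CxxC domain of their relative KDM2B. The group comprised 10 genes, taken by gene name from the 23369 gene names in the deposited RNA-seq tables. They were Kdm3a and Kdm3b, Kdm4a, Kdm4b and Kdm4c, Kdm5a, Kdm5b and Kdm5c, and Kdm6a and Kdm6b. Each had 1 row in each table, and all 10 passed the filter on low values that left 12997 genes for testing (0.5 FPKM or more in 3 or more of the 6 samples). FPKM counts the fragments of a gene per unit of transcript length and per unit of sequencing depth, so that levels can be compared between genes.

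JmjC demethylases remove methyl groups from lysines of histone tails by an oxidation that uses molecular oxygen, Fe(II) and 2-oxoglutarate. The KDM3 enzymes act on mono- and dimethylated H3K9, the KDM4 enzymes on trimethylated H3K9 and H3K36, the KDM5 enzymes on methylated H3K4 and the KDM6 enzymes on methylated H3K27, the mark deposited by PRC2. KDM2B is a JmjC protein too, and its ZF-CxxC domain binds non-methylated CpG dinucleotides and brings a variant PRC1 complex to CpG islands.

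The labels call the cells MS12 KDM2Bfl/fl ES cells, and loxP sites on both Kdm2b alleles flank an exon with most of the ZF-CxxC coding sequence. By the study's methods the allele was made in MS12 ESCs and the floxed lines were then derived from matings of mice that carried it, together with a tamoxifen-activated Cre recombinase (ERT2Cre) at the Rosa26 locus. All 6 samples shared the floxed alleles and the Cre, came from passages p10-p20, and had been grown on inactivated MEF feeders before a night without them. The untreated group and the tamoxifen group had 3 replicates each, and treated cells received 4-hydroxy tamoxifen at 800 nM for 72 hr by the sample labels (the series text gives the same figure in µM). The labels name 1 line, the JmjC domain of KDM2B is not in the removed exon, and no group received tamoxifen without floxed alleles, so that an effect of the drug and of the deletion cannot be told apart. The tables of the deposited files are named as if the groups were exchanged. Groups follow the sample labels throughout, and if the file names were right, each difference given here would have the opposite sign and the same size.

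Kdm2b was measured at 27.0, 21.5 and 27.7 FPKM in untreated replicates 1, 2 and 3 and at 19.9, 21.9 and 25.0 FPKM in tamoxifen replicates 1, 2 and 3, a log2 difference of -0.19. These are values of the whole gene, do not resolve the floxed exon and so check neither the deletion nor the direction of the labels. The FPKM tables hold no read counts. Single-fragment steps in low genes gave depths of 0.650 to 0.957 relative to untreated replicate 1. Both libraries numbered 1 stood apart, with 23.9% and 25.6% of all FPKM in loci under 300 bp, against 42.3% to 67.7% in the other 4. All 8 ESC markers examined (among them Pou5f1, Sox2 and Nanog) were tested, and their summed FPKM was 2257 to 3746 in untreated and 2866 to 5293 in tamoxifen samples. Most of each sum was Dppa5a, at 2221, 1401 and 1535 FPKM in untreated and 3534, 1795 and 1582 FPKM in tamoxifen replicates 1, 2 and 3. Fibroblast markers were present as well, at a summed 168, 308 and 448 FPKM in untreated and 209, 276 and 330 FPKM in tamoxifen replicates 1, 2 and 3. Vim made up most of each sum, at 124, 200 and 361 FPKM in untreated and 160, 172 and 250 FPKM in tamoxifen samples. Col1a1, Col1a2 and Thy1 were highest in replicate 2 of both groups, Twist1 and Prrx1 in replicate 3. The sums were lowest in replicate 1 of both groups, an order that several demethylase genes shared, and the part of feeder cells in the values below was not tested. In such bulk samples fewer cells of a type and less RNA per cell cannot be told apart.

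Because CpG dinucleotides are what the deleted domain binds, the promoters of the genes on which the results turn are shown first. The RefSeq windows on GRCm38.p6 run from 250 bases before to 50 bases after a transcription start, and 9 windows matched 6 of the 10 genes. Kdm3b, Kdm4b, Kdm5a and Kdm6b had no window. Kdm5b is printed because it had the highest level and the largest difference in the upward direction, Kdm3a (its second start) because it was the other gene higher in tamoxifen within all 3 replicate numbers and had the most CpG of the 9 windows, and Kdm6a because it varied most between replicate numbers. Capitals mark the CpG dinucleotides, read 5′ to 3′ on the strand of the gene. The Kdm5b window is chr1:134559928-134560227 on the plus strand, that of Kdm3a chr6:71632637-71632936 on the minus strand and that of Kdm6a chrX:18162325-18162624 on the plus strand.
Kdm5b: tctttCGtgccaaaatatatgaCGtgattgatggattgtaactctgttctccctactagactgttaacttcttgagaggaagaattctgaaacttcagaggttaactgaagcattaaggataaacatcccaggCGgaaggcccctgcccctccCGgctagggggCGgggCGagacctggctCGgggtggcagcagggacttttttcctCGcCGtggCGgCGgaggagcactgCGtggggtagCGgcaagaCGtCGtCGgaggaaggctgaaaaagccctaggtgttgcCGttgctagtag
Kdm3a: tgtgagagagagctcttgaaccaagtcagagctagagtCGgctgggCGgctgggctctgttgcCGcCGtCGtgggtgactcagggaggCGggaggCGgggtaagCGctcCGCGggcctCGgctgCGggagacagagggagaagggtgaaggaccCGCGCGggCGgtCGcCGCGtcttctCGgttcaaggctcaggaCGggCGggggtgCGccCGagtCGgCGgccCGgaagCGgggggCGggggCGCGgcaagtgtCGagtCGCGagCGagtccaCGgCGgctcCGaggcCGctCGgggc
Kdm6a: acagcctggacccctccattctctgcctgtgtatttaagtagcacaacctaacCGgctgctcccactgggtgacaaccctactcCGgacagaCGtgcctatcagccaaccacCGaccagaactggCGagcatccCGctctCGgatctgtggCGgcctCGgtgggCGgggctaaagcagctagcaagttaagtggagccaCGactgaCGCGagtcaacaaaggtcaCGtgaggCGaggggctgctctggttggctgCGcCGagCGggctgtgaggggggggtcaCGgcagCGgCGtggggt

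The Kdm5b window held 17 CpG, more than 68.6% of the 32851 windows of this length. The 3 windows of Kdm3a held 24, 40 and 0 CpG, and the one shown, with 40, exceeded 96.1% of all windows. For Kdm6a the count was 21, above 75.2% of windows. Kdm4c had one start with 0 and one with 28 CpG, and Kdm4a and Kdm5c had 13 each. Over all windows the median was 7 CpG, with quartiles of 3 and 20, so that 7 of the 9 windows of the demethylases lay above the median. These counts describe sequence only, since no occupancy values for KDM2B or the Polycomb proteins were analysed here.

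All 10 genes were expressed, but at unequal levels. Their means over the 6 samples ran from 6.51 FPKM (Kdm4b) to 74.1 FPKM (Kdm5b), and 8 of the 10 lay above the median of the tested genes, 9.43 FPKM. The order was Kdm5b, Kdm5c (25.0 FPKM), Kdm4c (24.1), Kdm3a (22.9), Kdm4a (18.1), Kdm3b (15.0), Kdm6a (11.1), Kdm6b (10.5), Kdm5a (7.77) and Kdm4b. Kdm5b stood alone, since its lowest sample (56.2 FPKM) was above the highest of any other member (32.4 FPKM, Kdm4c). Every other pair of neighbours overlapped in range. Within samples, the order of Kdm4a over Kdm3b, of Kdm3b over Kdm6a and of Kdm6b over Kdm5a held in 6 of 6, whereas Kdm4c over Kdm3a and Kdm6a over Kdm6b held in 3 of 6. The KDM5 family therefore had the largest summed FPKM, 101.1 ± 9.50 (SD, n = 3) in untreated and 112.7 ± 15.6 in tamoxifen samples, against 48.6 ± 7.93 and 48.8 ± 9.30 for KDM4, 35.8 ± 4.87 and 39.9 ± 8.64 for KDM3, and 22.8 ± 2.33 and 20.5 ± 6.22 for KDM6.

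**Figure D1:**
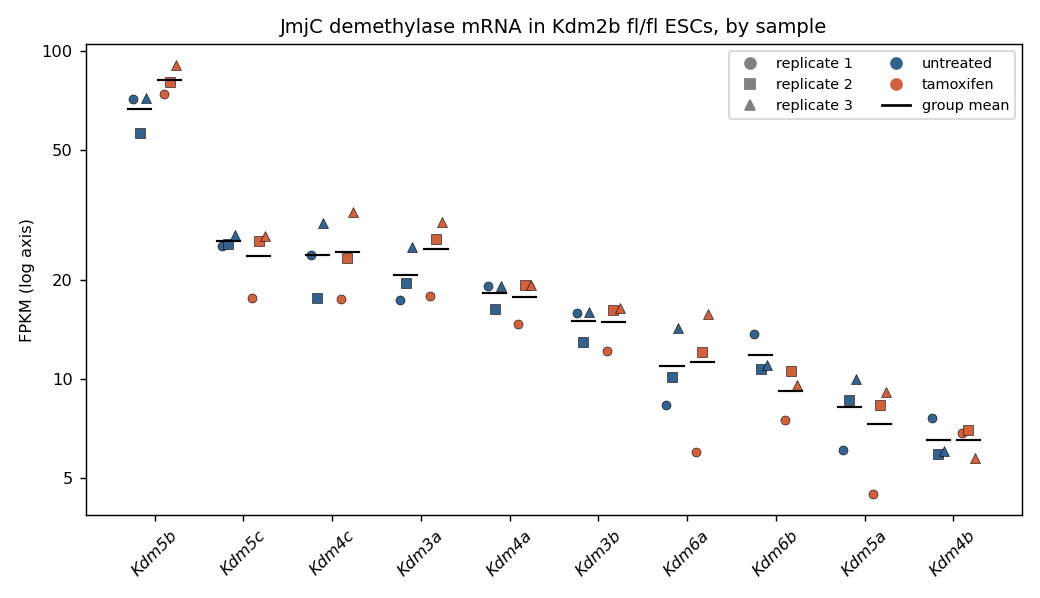
FPKM (log axis) of the 10 JmjC demethylase genes in each of 3 untreated and 3 tamoxifen samples, with symbols for the replicate number and a bar for the mean of each group. Kdm5b lies above all others in every sample, and only Kdm5b and Kdm6b have groups that do not overlap.

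No member of the family passed the test of tamoxifen against untreated samples. With limma on log2(FPKM + 0.1) and Benjamini-Hochberg adjustment over all 12997 genes, 0 of 10 had an adjusted p under 0.05, where 4 genes in all did (percent called 0.0308). Unadjusted, 0 of 10 had a p under 0.05, against 4.79% of all genes. The replicate numbers paired the samples, and once that number entered the fit as a block 563 genes were higher (4.33%) and 787 lower (6.06%), 10.4% in all. Without replicate 2 these counts were 36 and 43. Again 0 of 10 members were called by limma, and 1 had an unadjusted p under 0.05, against 29.8% of all genes. Scaled to TPM, the same blocked fit called 430 genes higher and 336 lower. The median log2 difference of the members was -0.02, as was that of all genes, and their median absolute difference was 0.107 against 0.199. None differed by over 1.5-fold, as 11.1% of all genes did. The tested genes include many of lower level than the members. The SD of the differences was 0.482 over all tested genes and 0.309 over those with 1 FPKM or more in all samples. The members were not set against genes of like level.

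The bounds on these differences depended on the block. With it, the 95% interval of 9 of the 10 genes lay within 1.5-fold in either direction. Without it 3 did, and all 10 lay within 2-fold. The median standard error of the members was 0.23 without and 0.13 with the block, against 0.29 and 0.12 for all genes.

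**Figure D2:**
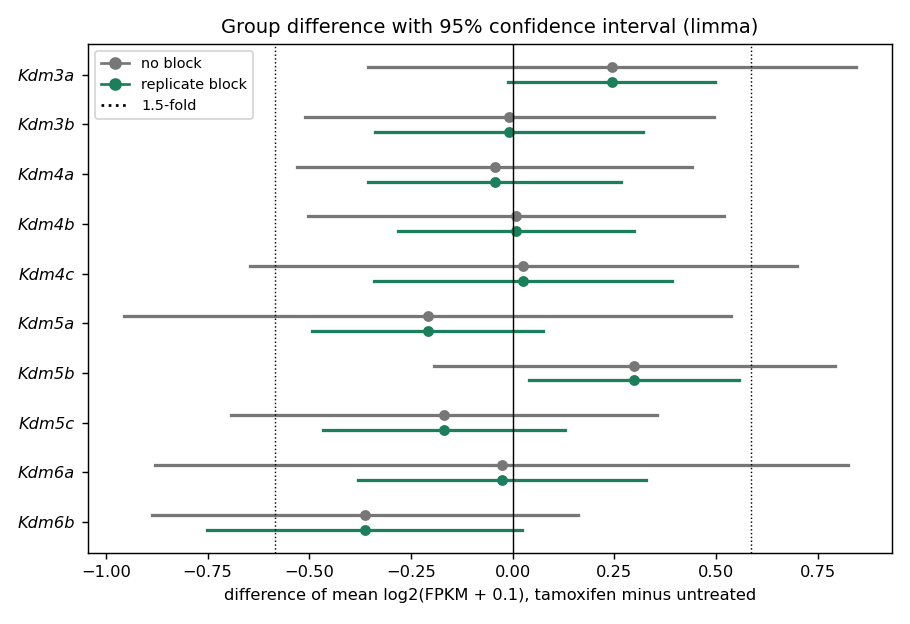
Difference of mean log2(FPKM + 0.1), tamoxifen minus untreated, with 95% confidence intervals from limma without a block (grey) and with a block for the replicate number (green); dotted lines mark 1.5-fold. In the blocked fit only the interval of Kdm5b leaves out 0, and only that of Kdm6b passes a 1.5-fold line.

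Of the H3K9me1/2 demethylases, Kdm3a (mm9 chr6:71538966-71582899), whose enzyme is also known for its role in spermatogenesis and is a hypoxia-induced gene, was measured at 17.4, 19.6 and 25.3 FPKM in untreated and 17.9, 26.8 and 30.1 FPKM in tamoxifen replicates 1, 2 and 3. The treated sample was the higher one within each number, but the groups overlapped. Their means were 20.8 ± 4.08 and 24.9 ± 6.29 FPKM (SD, n = 3), a log2 difference of 0.24 ± 0.26 (SE; limma adjusted p = 0.999, and 0.182 with the block). It was 0.092 without tamoxifen replicate 3 and 0.464 without tamoxifen replicate 1. Kdm3b, its paralogue, had 15.9, 13.0 and 16.1 FPKM in untreated and 12.2, 16.2 and 16.5 FPKM in tamoxifen samples. The tamoxifen sample was lower in number 1 and higher in 2 and 3, and both group means were 15.0 FPKM (log2 difference -0.01, with a blocked interval of -0.34 to 0.32).

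The KDM4 genes encode the demethylases of H3K9me3 and H3K36me3. Kdm4a (chr4:117809609-117852648) was at 19.3, 16.3 and 19.3 FPKM in untreated and 14.7, 19.4 and 19.4 FPKM in tamoxifen replicates 1, 2 and 3. Only untreated replicate 2 and tamoxifen replicate 1 lay below the other 4 samples, which were close together. The log2 difference was -0.04, and its blocked interval ran from -0.35 to 0.27. Kdm4b (chr17:56465473-56542296), the least abundant member, had 7.58, 5.90 and 6.01 FPKM against 6.83, 6.97 and 5.75 FPKM. Here replicate 1 was not the low one, and the groups overlapped with means of 6.50 ± 0.94 and 6.52 ± 0.66 FPKM (log2 difference 0.01, blocked interval -0.28 to 0.30). Kdm4c (chr4:73888401-74051768), a demethylase tied to the control of Nanog in ESCs, was at 23.9, 17.6 and 30.0 FPKM in untreated and 17.5, 23.5 and 32.4 FPKM in tamoxifen samples. Replicate 3 was the highest in both groups, and the means of 23.8 ± 6.18 and 24.5 ± 7.50 FPKM differed by 0.03 on the log2 scale (blocked interval -0.34 to 0.39).

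Among the H3K4 demethylases, Kdm5b (chr1:136456755-136529455), which ESCs express strongly and which lowers H3K4 methylation at promoters and enhancers, had 71.4, 56.2 and 71.9 FPKM in untreated and 73.9, 80.4 and 90.6 FPKM in tamoxifen replicates 1, 2 and 3. Every tamoxifen sample was above every untreated sample, by 2.01 FPKM at the closest. The means were 66.5 ± 8.92 and 81.6 ± 8.41 FPKM, a log2 difference of 0.30 ± 0.22 (SE; limma adjusted p = 0.999). With the block the interval was 0.04 to 0.56 and the adjusted p 0.124. Without replicate 1 the blocked difference was 0.42 with an adjusted p of 0.0272, the only alternative of 25 in which a member was called. That fit also called the most genes of any setting, 744 higher and 1011 lower of 12997 tested. A call in it therefore does little to set Kdm5b apart from other genes. Without replicate 2 the blocked difference of Kdm5b was 0.19 with an adjusted p of 0.449.

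Kdm5a (chr6:120314117-120394592), the H3K4 demethylase first found as a partner of the retinoblastoma protein, had 6.09, 8.62 and 10.0 FPKM in untreated and 4.46, 8.32 and 9.10 FPKM in tamoxifen replicates 1, 2 and 3. It was lower in tamoxifen within every number, although the groups overlapped. Group means were 8.24 ± 1.99 and 7.29 ± 2.48 FPKM, a log2 difference of -0.21 ± 0.33 (SE; limma adjusted p = 0.286 with the block). Its locus overlaps that of Ccdc77 (log2 difference 0.13), so that reads of both genes may not be fully told apart. Kdm5c (chrX:148667773-148708897), the X-linked member, had 25.5, 25.9 and 27.5 FPKM in untreated samples, the smallest coefficient of variation of the family in that group (4.11%), and 17.7, 26.4 and 27.3 FPKM in tamoxifen samples. Tamoxifen replicate 1 alone lay below the rest, and the log2 difference of -0.17 had a blocked interval of -0.47 to 0.13. Its Y-linked copy Kdm5d, with which it may share reads, had means of 3.29 ± 0.40 and 3.53 ± 0.97 FPKM.

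The H3K27 demethylases oppose the mark that PRC2 sets. Kdm6a (chrX:17739793-17856484), also a subunit of the KMT2C and KMT2D methyltransferase complexes, had 8.33, 10.2 and 14.3 FPKM in untreated and 5.99, 12.1 and 15.7 FPKM in tamoxifen replicates 1, 2 and 3. The groups overlapped throughout, each lowest in 1 and highest in 3, and the log2 difference was -0.03 (blocked interval -0.38 to 0.33). Its Y-linked copy Uty had means of 5.56 ± 2.34 and 5.49 ± 2.85 FPKM and was also lowest in replicate 1 and highest in replicate 3 of both groups.

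Kdm6b (chr11:69212020-69227177), the inducible H3K27 demethylase, was at 13.73, 10.70 and 11.04 FPKM in untreated and 7.47, 10.6 and 9.56 FPKM in tamoxifen replicates 1, 2 and 3. Every tamoxifen sample lay below every untreated sample, but by 0.133 FPKM at the closest, between both replicates 2. The means of 11.8 ± 1.66 and 9.20 ± 1.58 FPKM gave a log2 difference of -0.36 ± 0.23 (SE), the largest in size of the family, with a limma adjusted p of 0.999, and of 0.188 with the block (interval -0.75 to 0.02). Without replicate 1 the difference was -0.11. The 5 tested genes whose log2(FPKM + 0.1) followed Kdm6b most closely over the 6 samples were Numa1 (Pearson's r = 0.999), Inppl1 (0.996), Slc25a30 (0.993), Zfp516 (0.986) and Gnao1 (0.981), picked as the highest of all tested genes. The 6 samples differed between replicate numbers as described below. The small range of replicate means of Kdm6b (0.07) does not show that it was stable between numbers. Its replicate 1 was the highest untreated and the lowest tamoxifen sample, and averaging over both groups cancels such opposite deviations. What these genes have in common was not tested.

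Kdm5b and Kdm6b were thus the 2 of 10 members whose groups did not overlap, one in each direction, where 8.49% of all tested genes had such groups. The difference had the same direction in all 3 replicate numbers in 4 members, higher in Kdm3a and Kdm5b and lower in Kdm5a and Kdm6b. Among all tested genes this share was 53%.

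The direction of the differences varied between replicate numbers. Within number 1, 8 of 10 members were lower in the tamoxifen sample, with a median log2 difference of -0.41, whereas 56.3% of all genes were lower, with a median of -0.06. Within number 2, 8 of 10 were higher (median 0.25), against 54.7% of all genes (median 0.04). In number 3 the count was 6 higher and 4 lower (median 0.02), and 47.6% of all genes were higher (median -0.02). Kdm4c and Kdm6b spanned wide ranges, the former at -0.44, 0.41 and 0.11 and the latter at -0.87, -0.02 and -0.21 in numbers 1, 2 and 3. These 3 values are single pairs of libraries, with no test within a pair.

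**Figure D3:**
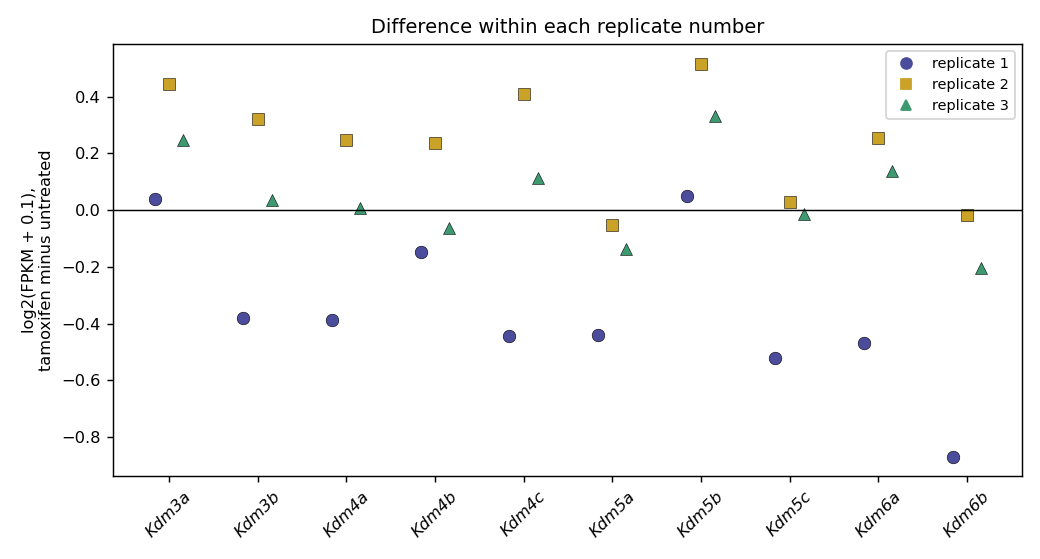
Difference in log2(FPKM + 0.1), tamoxifen minus untreated, within each replicate number for the 10 genes. Replicate 1 lies lowest in every gene and below 0 in 8 of them, and replicate 2 lies highest in every gene.

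Samples of the same number shared part of their order of levels. Averaged over both groups on the log2(FPKM + 0.1) scale, 8 of 10 members were highest in replicate 3 and 7 were lowest in replicate 1. Those 8 were highest in replicate 3 of each group. Of the 7, Kdm3a, Kdm5a, Kdm5c and Kdm6a were lowest in replicate 1 of each group. Kdm3b, Kdm4a and Kdm6b were lowest in replicate 1 among tamoxifen samples only. Kdm6a means were 7.16, 11.1 and 15.0 FPKM for numbers 1, 2 and 3, a range of 1.08 on the log2 scale beside a group difference of -0.03. Kdm5a followed with 5.28, 8.47 and 9.55 FPKM and a range of 0.86. Kdm3a (0.64) and Kdm4c (0.61) were next. At the other end Kdm6b had mean FPKM of 10.6, 10.6 and 10.3 and a range of 0.07, and it was lowest in number 1 by the log2 means but in number 3 by the FPKM means. That small range averages a high untreated and a low tamoxifen replicate 1 and so does not show stability between numbers. The range between replicate numbers was larger than the group difference in 8 of 10 members, all but Kdm5b and Kdm6b, and in 89.4% of all tested genes. Of the 45 pairs of members, 9 had a Pearson's r over 0.8 across the 6 samples and 7 were below 0. The extremes were Kdm3b with Kdm4a (0.989) and Kdm4b with Kdm5a (-0.654), and these correlations describe the 6 libraries, with depth and replicate number in common.

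**Figure D4:**
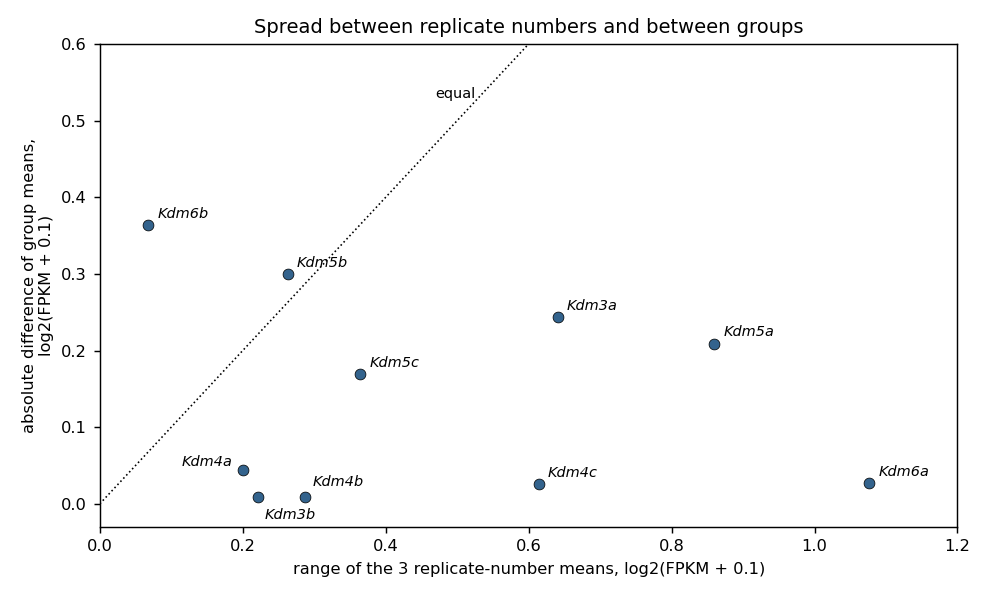
Range of the 3 replicate-number means (horizontal) and absolute difference of the group means (vertical) for each gene, both on log2(FPKM + 0.1), with a dotted line of equality. Kdm6b and Kdm5b lie above the line and the other 8 below it, with Kdm6a farthest to the right at 1.08. The small range of Kdm6b averages a high untreated and a low tamoxifen replicate 1.

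Other JmjC-domain genes were read from the same fits, and of 20 tested (21 listed) limma called 0 in either. Hr, a demethylase relative active in skin, and Phf2, an H3K9 demethylase, had the smallest p without the block, with log2 differences of -0.51 and -0.41 (limma adjusted p = 0.100 and 0.139 with the block, where Jmjd7 and Jmjd1c had 0.0777 and 0.0829). Kdm2a, the closest relative of Kdm2b and itself a CpG-binding protein, was at 13.6 ± 2.76 and 12.2 ± 4.02 FPKM (log2 difference -0.20, blocked adjusted p = 0.335). The flavin-dependent demethylases, which work without oxygenase chemistry, and their CoREST partners gave 0 calls of 8 tested. In that list Kdm1a, an H3K4 demethylase, stood at 77.4 ± 23.4 and 97.5 ± 16.5 FPKM (log2 difference 0.36, blocked adjusted p = 0.0686) and Rcor1, its scaffold, at a log2 difference of -0.59 (0.146).

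Partners of the demethylases were mostly not called either. In the complex that contains KDM6A, 0 of 9 genes passed in either fit, and Dpy30 and Kmt2d, the genes with the smallest p without the block, had log2 differences of 0.26 and -0.24. Of 9 KDM5 and SIN3 partners, 1 rose in the blocked fit, the corepressor scaffold Sin3b (0.54, limma adjusted p = 0.0374, and 0.0584 with quantile normalization as well). Of 15 genes that make or use 2-oxoglutarate and the succinate and fumarate downstream of it, 1 rose, Idh2, a mitochondrial enzyme that produces 2-oxoglutarate (0.40, adjusted p = 0.0443, and 0.0721 with quantile normalization). With TPM scaling the blocked fit called 1 and 0 genes of these lists. Sin3b was lost without replicate 1 or 2, and Idh2 without replicate 2 or 3. None of these was called without the block.

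Genes of the response to low oxygen, a substrate of all JmjC enzymes, were examined next. Of 13 tested (14 listed), 5 rose and 1 fell in the blocked limma fit, against 3 and 1 with quantile normalization and 0 without the block. The log2 differences were 0.51 for Pgk1 and 0.52 for Ldha, both glycolytic enzymes, 0.81 for Bnip3, a mitophagy receptor, 0.95 for Ankrd37 and 0.53 for Ndrg1, with adjusted p from 0.00938 to 0.0253. Slc2a1, the glucose transporter GLUT1, fell by 0.65 on the log2 scale (adjusted p = 0.0159). Pgk1 and Ldha were the calls lost with quantile normalization (0.0774 and 0.0753). Kdm3a, Kdm4b and Kdm4c, which are among the members known as hypoxia-inducible, had differences of 0.24, 0.01 and 0.03. Over all 10 members the differences ran from -0.36 (Kdm6b) to 0.30 (Kdm5b).

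Among pluripotency genes tied to Kdm3a or Kdm4c in ESCs, 1 of 3 tested rose with the block, Tcl1, a coactivator of AKT kinase (log2 difference 0.66, limma adjusted p = 0.0135). Nanog, the homeobox factor, was at 148 ± 42.2 and 201 ± 5.78 FPKM (0.48, blocked adjusted p = 0.0792). With Sox2 (0.32, 0.128) it had the smallest p of the 8 ESC markers, of which 0 were called with or without the block. The blocked fit with TPM scaling called 1 ESC marker higher, as did the blocked fit without replicate 1. Each of those fits called 2 of the 3 pluripotency genes. Nanog is in both lists, so that these counts may share a gene. Of 9 tested fibroblast markers 1 fell, Twist1 (-0.84, adjusted p = 0.0161), and of 8 tested differentiation markers 6 fell with the block, Gata6, Gata4, Eomes, Pax6, Nes and Cdx2, by 0.55 to 1.73 on the log2 scale (4 with quantile normalization, without Gata4 and Eomes, and 3 with TPM scaling, without Nes as well), whereas T and Fgf5 had differences of 0.38 and 0.29 and were not called. The summed FPKM of the 9 listed differentiation markers was 26.9 to 38.6 in untreated and 19.2 to 22.1 in tamoxifen samples, and its part in the demethylase values was not tested. In the blocked fit without replicate 2, 0 genes of the KDM5 and SIN3, 2-oxoglutarate, low-oxygen, pluripotency, fibroblast and differentiation lists were called.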

How the data were processed

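Directional paired-end libraries of polyA+ RNA were sequenced for 6 samples. The authors aligned reads to mm9 with Tophat2 (v0.5) and obtained values on refGene models with cuffdiff (v2.1.1), per their methods, and deposited FPKM values with a confidence interval and a status for each of 23874 rows. The width of that interval was 4.77% to 23.2% of the value for the 10 genes. Rows were summed by gene name, and 6 names with a failed quantification were left out. The test was limma 3.58.1 (R 4.3.3; trended eBayes, Benjamini-Hochberg adjustment over 12997 genes, threshold 0.05) on log2(FPKM + 0.1), a scale that understates changes of low genes, both without a block and blocked by replicate number. FPKM are scaled by each library's sequencing depth, whereas TPM scaling divides by its summed FPKM. Short loci that fill that sum shift every gene of the library under TPM scaling. Their part in the FPKM of other genes was not tested. Nothing states that replicates came from separate cultures beyond their description as biological triplicates. Same-numbered samples, numbered by the labels, deviated together from their group means (correlations of 0.544, 0.605 and 0.506), whereas other pairs had -0.379 to -0.105. Deviations from a group mean cancel within the group, so positive same-numbered correlations make the other pairs negative on balance. The negative values are therefore no separate evidence of pairing. The fits were tested on simulated data. Python 3.11.15 with pandas 2.3.3, numpy 2.4.6, scipy 1.17.1 and matplotlib 3.10.9 did the rest. The genes and gene lists were chosen with earlier results of these data known. All 10 genes are named. From each list the genes called in either fit are named, or the 2 with the smallest p without the block. Alternatives were other pseudocounts (1 and 0.01), TPM scaling, quantile normalization, the highest row per gene name, no filter, a filter of 1 FPKM in all samples, an untrended eBayes, the log2 ratio of group means, and leaving out samples; leaving out a replicate number in both groups without the block was added after the data were seen. ChIP-seq samples were not analysed here.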

Additional observations from a re-analysis of the deposited data

How the results depend on the processing

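Over 25 alternative settings, 235 of 275 differences of the 10 genes and Kdm2b kept their direction and their side of the threshold, 39 changed sign without a call and 1 passed the threshold, Kdm5b in the fit with the replicate block without replicate 1. The number of the 10 genes called higher was therefore 0 to 1 when replicates were left out. Most alternatives could hardly call a member, since fits without the block called 0 to 5 genes higher and 0 to 7 lower among all tested. The log2 ratio of group means had no test and so no threshold to pass. With or without the block, TPM scaling turned Kdm3b to 0.092, Kdm4a to 0.056 and Kdm6a to 0.074, and quantile normalization turned Kdm3b to 0.040 and Kdm6a to 0.042. The log2 ratio of group means turned Kdm6a to 0.046. Leaving out samples gave 0.092 to 0.464 for Kdm3a, 0.183 to 0.425 for Kdm5b, -0.537 to -0.111 for Kdm6b, -0.17 to 0.18 for Kdm3b, -0.19 to 0.13 for Kdm4a, -0.11 to 0.12 for Kdm4b, -0.20 to 0.26 for Kdm4c, -0.41 to 0.11 for Kdm5a, -0.28 to 0.029 for Kdm5c and -0.32 to 0.37 for Kdm6a. Genes called higher and lower among all tested were 3 and 1 without the block. They were 563 and 787 with the replicate block, 558 and 586 with quantile normalization as well, 659 and 931 with a pseudocount of 1 and 430 and 336 with TPM scaling. Without the block a filter of 1 FPKM gave 0 and 0, and a pseudocount of 1 gave 0 lower genes. Leaving out replicates gave 0 to 744 higher and 0 to 1011 lower genes, and the blocked fit without replicate 2 gave 36 and 43. The counts of 744 and 1011 came from the blocked fit without replicate 1, the same fit that called Kdm5b. The cause was not tested. Depth in reads is unknown, so that no counting error can be given beyond the deposited intervals. Their width was 4.77% to 23.2% of the value for the 10 genes. The wider intervals of the fit without the block do not bound most of the 10 genes within 1.5-fold.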
